A study of Drosophila melanogaster with 2 samples.

Results

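The nuclear pore complex and the receptors that carry cargo through it were examined in RNA-seq of Kc167 cells, a Drosophila melanogaster line of embryonic origin. Genes were taken by FlyBase symbol: Nup followed by a digit, together with 17 further pore and transport genes. Of the 38 genes this rule names, 37 were found among the 17807 genes of the deposited table, namely 25 nucleoporins (Mtor, Elys, Ndc1 and Rae1 included) and 12 transport factors. Mtor is listed under the symbol Mgtor, whose synonyms include both Mtor and Tpr. Pen, an importin alpha, could not be matched to a row by its identifier in the annotation and was not analysed here. Whether a row under an older identifier holds it was not settled, so the importin alpha genes compared are Kap-alpha1 and Kap-alpha3. The 2 libraries, replicates 1 and 2, are both from control cells grown at 25 °C and given 2% DMSO for 1 h, so there is a single condition and no comparison between conditions. The labels do not say whether the replicates came from separate cultures, and the spread between them may be technical.

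Nuclear pores are large channels through the nuclear envelope. A scaffold of Y-shaped complexes forms the outer rings and an inner ring lines the membrane, while nucleoporins rich in phenylalanine-glycine repeats fill the channel and extend as filaments on the cytoplasmic side and as a basket on the nuclear side. Soluble receptors of the karyopherin family bind cargo and pass through these repeats, and the GTPase Ran, which is loaded with GTP by Rcc1 on chromatin and discharged by RanGAP in the cytoplasm, sets the direction of transport. Bulk mRNA uses a different receptor, sbr, for its export.

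Replicate 1 held 33436865 read pairs counted on genes and replicate 2 held 31721648. Read pairs placed at several sites, 11.2% in replicate 1 and 10.8% in replicate 2, were counted on no gene, so that genes with a near-identical copy may be undercounted. The labelled cell line was compared with marker lists. All 9 blood cell markers reached 10 counts in both libraries. Their deposited TPM summed to 570 in replicate 1 and 590.5 in replicate 2. The levels were uneven, with means of 188 deposited TPM for He, 143 for Col4a1 and 102 for vkg. Hml averaged 47.0, srp 45.8 and ush 43.2. The lowest means were 5.41 for eater, 4.18 for Pxn and 1.76 for NimC1. Of 3 testis markers none reached this minimum, and Mst84Da and dj were at 0 counts in both libraries. Neuronal markers summed to 1.48 deposited TPM in replicate 1 and 1.59 in replicate 2. Of 3 crystal cell markers, lz alone reached the minimum, with 20 counts in replicate 1 and 17 in replicate 2. All 3 germ line markers reached the minimum. Their mean deposited TPM was 57.2 for bam, 20.8 for nos (listed as nanos) and 3.05 for vas. Of 3 muscle markers, 2 reached it, at a mean of 32.7 deposited TPM for Mlc2 and 0.0160 for Mhc. In a bulk library, fewer cells with an RNA and less of that RNA per cell cannot be told apart.

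All 37 genes were read deeply. Each had at least 10 counts in both libraries, against a background of 49.7% of all genes and 59.5% of protein-coding genes. Their counts ran from 788 for Tnpo-SR in replicate 2 to 39120 for Ran in replicate 1. The 95% exact Poisson interval of a count was accordingly 7.05% of the count to either side at the weakest and 0.992% at the strongest, which covers counting error only. The 37 genes together took 0.946% of the gene counts of replicate 1 and 0.955% of those of replicate 2, and Ran alone held 12.4% of this share in replicate 1 and 12.5% in replicate 2.

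Levels were compared between genes in TPM, that is, counts per length of gene, put on the same sum in each library. The deposited length adds up the exons of every annotated transcript, and for all 37 genes it equalled this sum. A gene with several transcripts is therefore divided by a length that counts shared exons repeatedly. TPM was thus also calculated with each exonic base counted once, called exonic TPM here. The change of scale multiplied the TPM of the 16 members with 1 transcript, whose lengths are equal, by 0.638, since the values of a library still add up to the same sum. The plot of levels by role shows each gene on both scales. The members' median deposited TPM was 117 (115 in replicate 1 and 118 in replicate 2), against 32.7 for the 8263 counted protein-coding genes, a ratio of 3.58. In exonic TPM the medians were 93.5 for the members and 37.8 for the protein-coding genes, a ratio of 2.47. On the deposited scale 34 of the 37 genes lay above the median of counted protein-coding genes, which 50% of those genes exceed, and Tnpo, Nup44A and Tnpo-SR lay below it. On the exonic scale Tnpo-SR was the single gene below it.

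**Figure D1:**
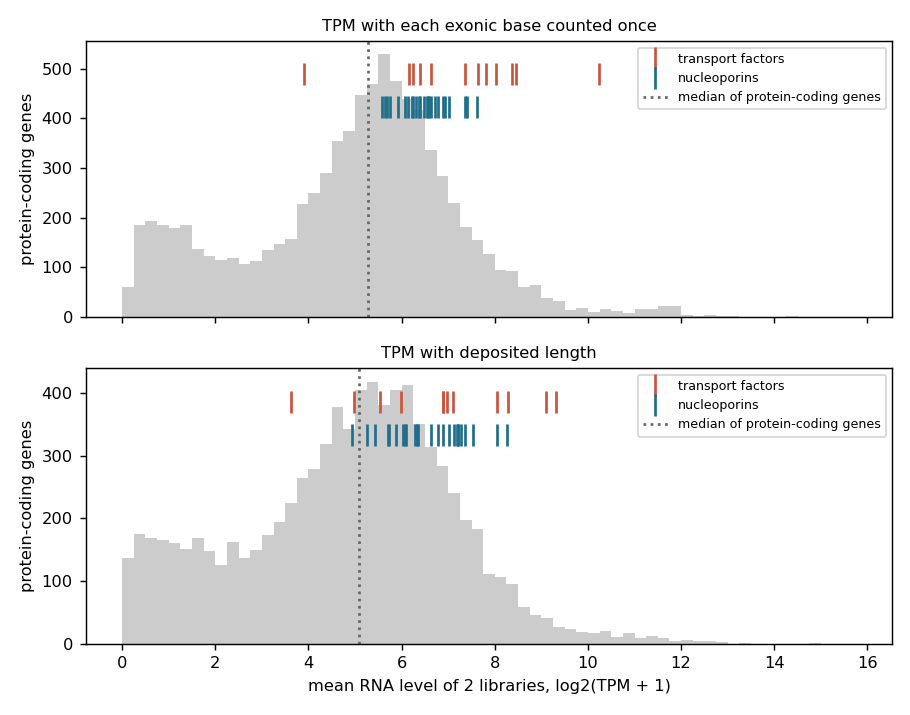
Distribution of the mean RNA level of counted protein-coding genes, as log2(TPM + 1), with each exonic base counted once (upper panel) and with the deposited length (lower panel). Vertical ticks mark the 12 transport factors and the 25 nucleoporins, and the dotted line is the median of the protein-coding genes. On the exonic scale the nucleoporins form a band above the median, from 46.7 to 195 TPM. Transport factors reach from 13.9 TPM (Tnpo-SR) to 1206 TPM (Ran), with the others from 70.5 TPM (Tnpo) to 350 TPM (msk).

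From the lowest to the highest gene, the nucleoporins spanned a narrower range than the transport factors. In exonic TPM the 25 nucleoporins spanned 4.17-fold, from 46.7 for Elys to 195 for Rae1, and 22 of them lay below 130 TPM. The 12 transport factors spanned 87.0-fold, from 13.9 for Tnpo-SR to 1206 for Ran. This exonic span was set by Tnpo-SR and Ran. The other transport factors ran from 70.5 exonic TPM for Tnpo to 350 for msk, and from 30.5 to 548 deposited TPM for the same genes. In deposited TPM these spans were 10.3-fold for the nucleoporins and 56.3-fold for the transport factors. The median of the transport factors was 181 exonic TPM, against 88.2 for the nucleoporins, a ratio of 2.05, while in deposited TPM it was 121, against 97.8, a ratio of 1.24. How far apart the medians of the transport factors and the nucleoporins stand thus depended on the gene length.

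**Figure D2:**
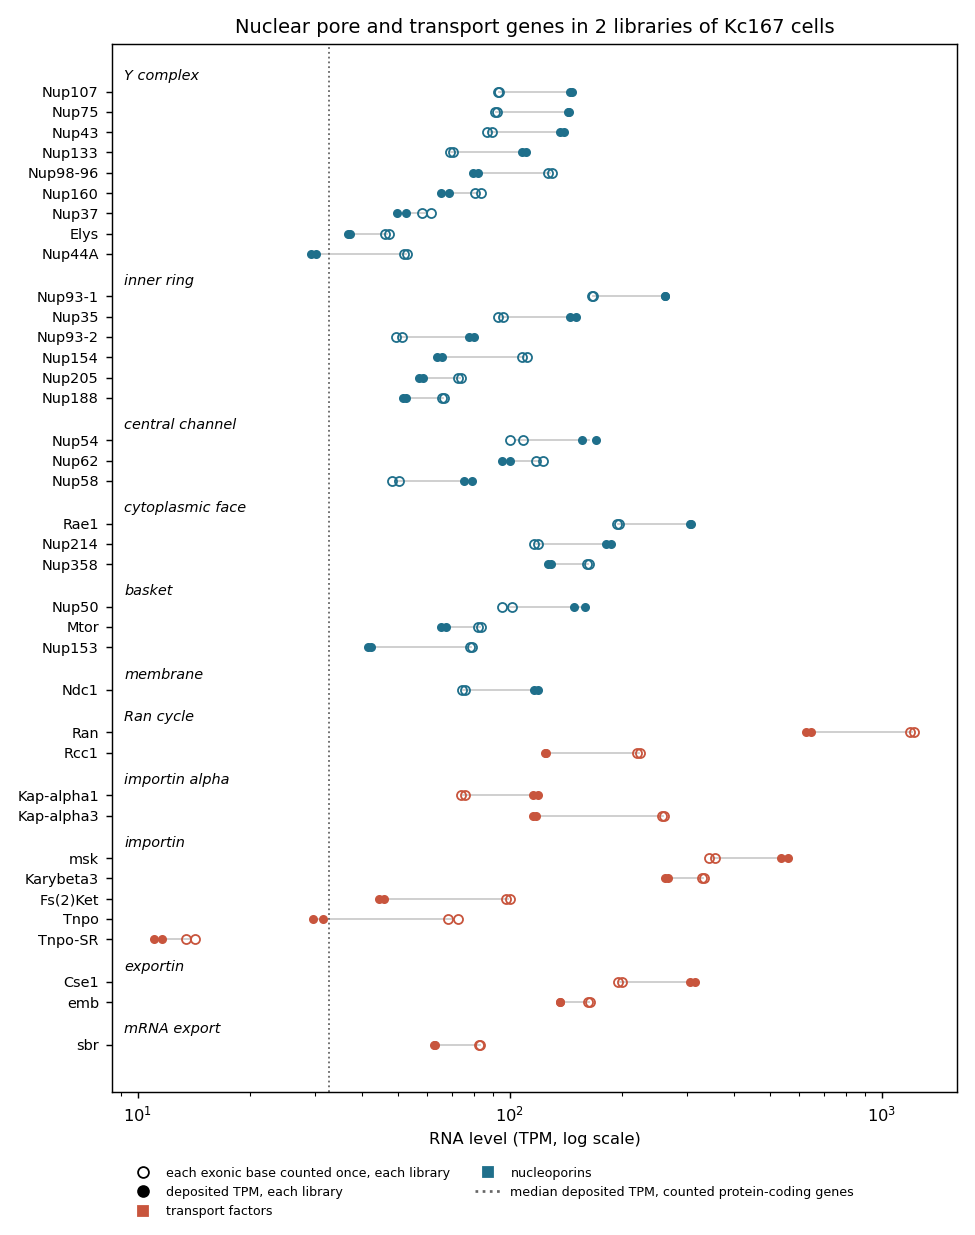
RNA level of each of the 37 genes in TPM on a log scale, grouped by role. Open circles are TPM with each exonic base counted once and filled circles are deposited TPM, with a point for each library and a grey line between the means. The dotted line is the median deposited TPM of counted protein-coding genes (32.7), and the 16 genes with 1 transcript shift alike between the scales, by a factor of 0.638.

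The Y complex builds the outer rings of the pore. Its 9 genes had a median of 80.9 deposited TPM and 82.2 exonic TPM. Nup107, a core subunit of the stem, had 4374 counts in replicate 1 and 4153 in replicate 2, which is 93.2 and 93.7 exonic TPM. The short-arm subunits Nup75, the homologue of vertebrate Nup85, at 91.9 ± 1.14 exonic TPM, and Nup43, at 88.2 ± 1.80 exonic TPM (SD, n = 2), were close to it. Nup107, Nup75 and Nup43 have 1 annotated transcript each and lay within 1.06-fold of each other on both scales. Nup133, which anchors the tip of the stem to the membrane, was lower, at 69.7 ± 0.994 exonic TPM, and Nup160, in the long arm, stood at 82.2 ± 2.42 (SD, n = 2). Below these followed Nup37 at 59.7 ± 2.47, Nup44A, the homologue of Seh1, at 52.5 ± 0.793 and Elys, which brings the complex to chromatin as the envelope re-forms after mitosis, at 46.7 ± 0.744 exonic TPM (SD, n = 2). In deposited TPM the means were 147 for Nup107, 109 for Nup133, 66.8 for Nup160, 51.1 for Nup37, 36.99 for Elys and 29.7 for Nup44A.

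Nup98-96 encodes a precursor from which both Nup98, a mobile nucleoporin, and Nup96, a stem subunit of the Y complex, are derived, so its RNA serves more than the Y complex. There were 15030 counts of it in replicate 1 and 14501 in replicate 2, the most of the 9 genes, at 127 and 130 exonic TPM. On the exonic scale it was the highest of the Y complex genes and 2.75 times the lowest, Elys. On the deposited scale it was in the middle, at 80.9 ± 1.64 TPM (SD, n = 2), and the highest gene was Nup107, 4.94 times the lowest, Nup44A. The order at the top of the complex hence differed between the scales, whereas Elys and Nup44A were the lowest pair on both.

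Among the 6 inner ring genes, Nup93-1 stood out. Nup93 links the ring to the channel nucleoporins, and Drosophila has 2 genes for it. Nup93-1 had 8086 counts in replicate 1 and 7578 in replicate 2, and Nup93-2 had 2214 and 2015. Each has 1 annotated transcript, so the gene length does not alter their ratio, and Nup93-1 was higher by 3.32 ± 0.0688-fold (SD, n = 2) in TPM. Nup93-2 was nonetheless well expressed, at 51.3 exonic TPM in replicate 1 and 49.5 in replicate 2. The large scaffold subunits Nup205 and Nup188 were near each other, at 73.3 ± 1.04 and 66.1 ± 0.553 exonic TPM (SD, n = 2). Their ranges did not overlap, and Nup205 was higher by a mean of 1.11-fold on the exonic scale. Nup154, the homologue of Nup155, reached 108 exonic TPM in replicate 1 and 111 in replicate 2, and Nup35, a small membrane-binding subunit, reached 93.1 and 95.9.

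The channel is filled by Nup54, Nup58 and Nup62, which assemble with each other into coiled-coil bundles. Their RNA levels were unequal. In exonic TPM Nup62 had 118 in replicate 1 and 123 in replicate 2, Nup54 had 100.1 and 108, and Nup58 had 48.1 and 50.3. Nup62 and Nup54 were thus 2.44 and 2.12 times Nup58, and no library of Nup58 overlapped theirs. In deposited TPM Nup54 was the highest instead, at 163 ± 10.02, with Nup62 at 97.8 ± 3.42 and Nup58 at 77.1 ± 2.75 (SD, n = 2). Nup58 was the lowest on both scales.

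On the cytoplasmic face, Rae1, which binds Nup98 and takes part in mRNA export, was the highest of the 25 nucleoporins on both scales, at 306 ± 1.38 deposited and 195 ± 1.83 exonic TPM (SD, n = 2). Nup358, the large filament protein known as RanBP2 in vertebrates, held 23895 counts in replicate 1 and 22776 in replicate 2, the most of the nucleoporins, on the longest coding sequence of the 37 genes, 8154 bases. Per length it had 162 exonic TPM in replicate 1 and 163 in replicate 2. Nup214, which docks exportin complexes, had 116 and 119 exonic TPM. Nup358 was 1.38 times Nup214 in exonic TPM and 0.693 times Nup214 in deposited TPM, so their order turned with the gene length.

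The basket genes were close to each other on the exonic scale. Nup50, a mobile nucleoporin that helps release cargo from importin alpha, had 98.4 ± 4.09 exonic TPM, Mtor, the Tpr homologue that builds the basket filaments, had 82.9 ± 1.26, and Nup153, which holds the basket to the nuclear ring, had 78.7 ± 0.671 (SD, n = 2). They spanned 1.25-fold in exonic TPM and 3.68-fold in deposited TPM, where Nup153, with 3 transcripts, stood at 41.9 TPM. Ndc1, a membrane protein that anchors the pore, had 74.5 exonic TPM in replicate 1 and 75.7 in replicate 2.

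Ran had the highest RNA level of the 37 genes. Its counts were 39120 in replicate 1 and 37766 in replicate 2, at 627 and 646 deposited TPM and 1193 and 1219.5 exonic TPM. It stood 3.45 times above the next gene, msk, in exonic TPM and 1.16 times in deposited TPM. Ran made up 22.1% of the summed exonic TPM of the 37 genes in replicate 1 and 22.3% in replicate 2. Rcc1, its exchange factor, had 224 and 221 exonic TPM, so that Ran exceeded its exchange factor by 5.43 ± 0.147-fold (SD, n = 2). RanGAP, the activating protein at the other end of the cycle, had 165 exonic TPM in both libraries and a mean of 94.9 deposited TPM.

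The importin alpha adaptors, which read classical nuclear localisation signals, show how much the length can matter. Kap-alpha3 held 12732 counts in replicate 1 and 12155 in replicate 2, and Kap-alpha1 held 2965 and 2875. In deposited TPM they could not be told apart, at 117 ± 1.49 for Kap-alpha3 and 117 ± 2.79 for Kap-alpha1 (SD, n = 2). Kap-alpha3 has 4 annotated transcripts and a deposited length of 9932 bases, 3.46 times its exonic length of 2867, whereas Kap-alpha1 has 1 transcript. In exonic TPM Kap-alpha3 reached 258 ± 2.05 and Kap-alpha1 74.9 ± 1.42 (SD, n = 2), a ratio of 3.45. Cse1, the exportin that returns importin alpha to the cytoplasm, stood at 198 ± 2.91 exonic TPM (SD, n = 2).

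The importins of the beta family differed most. The importin 7 homologue msk had 343 exonic TPM in replicate 1 and 356 in replicate 2, and Karybeta3, the importin 5 homologue, had 328 and 333. Fs(2)Ket, importin beta itself, was well below them, at 97.6 and 99.9 exonic TPM, although its 12073 and 11668 counts came close to those of Kap-alpha3. The span between msk and Fs(2)Ket was 3.54-fold in exonic TPM and 12.1-fold in deposited TPM, since Fs(2)Ket has 5 transcripts and a deposited length of 24472 bases. Tnpo, the transportin that imports RNA-binding proteins, had 72.8 and 68.3 exonic TPM, but a mean of 30.5 deposited TPM. Tnpo-SR, which imports SR splicing factors, was the lowest gene on both scales, with 884 counts in replicate 1 and 788 in replicate 2, at 14.3 and 13.5 exonic TPM. Its exonic level was 3.37 times below that of the next gene, Elys, a gap far wider than the spread of either gene between libraries.

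The exportin emb, known as CRM1 in vertebrates, carries proteins with leucine-rich export signals. It had 164 exonic TPM in replicate 1 and 162 in replicate 2, and a mean of 136 deposited TPM. Cse1 exceeded it by 1.22 ± 0.0274-fold in exonic TPM and by 2.28 ± 0.0514-fold in deposited TPM (SD, n = 2). The mRNA export receptor sbr, the Drosophila NXF1, stood lower than both, at 83.4 exonic TPM in replicate 1 and 82.6 in replicate 2. Its small partner Nxt1 was far above it, at 359 and 355 exonic TPM, so that sbr reached a mean of 0.233 times the level of Nxt1. In deposited TPM sbr averaged 62.8 and Nxt1 283, a ratio of 0.222.

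The order of the genes was compared between the scales. Their rank correlation was 0.749 across the 37 genes, which share both libraries and the same counts, and it is given as a description. Ran and msk held ranks 1 and 2 and Tnpo-SR rank 37 on both, and 6 genes were among the top 10 of both. In all, 8 genes moved by 10 or more places. Fs(2)Ket was at rank 16 on the exonic scale and 32 on the deposited scale, Kap-alpha3 at 4 and 19, Nup154 at 14 and 27, Rcc1 at 5 and 16, and Nup98-96 at 11 and 22, and each of these 5 has several transcripts. Nup93-2 was at rank 34 on the exonic scale and 23 on the deposited scale, Nup58 at 35 and 24, and Nup133 at 30 and 20, and these have a single transcript.

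**Figure D3:**
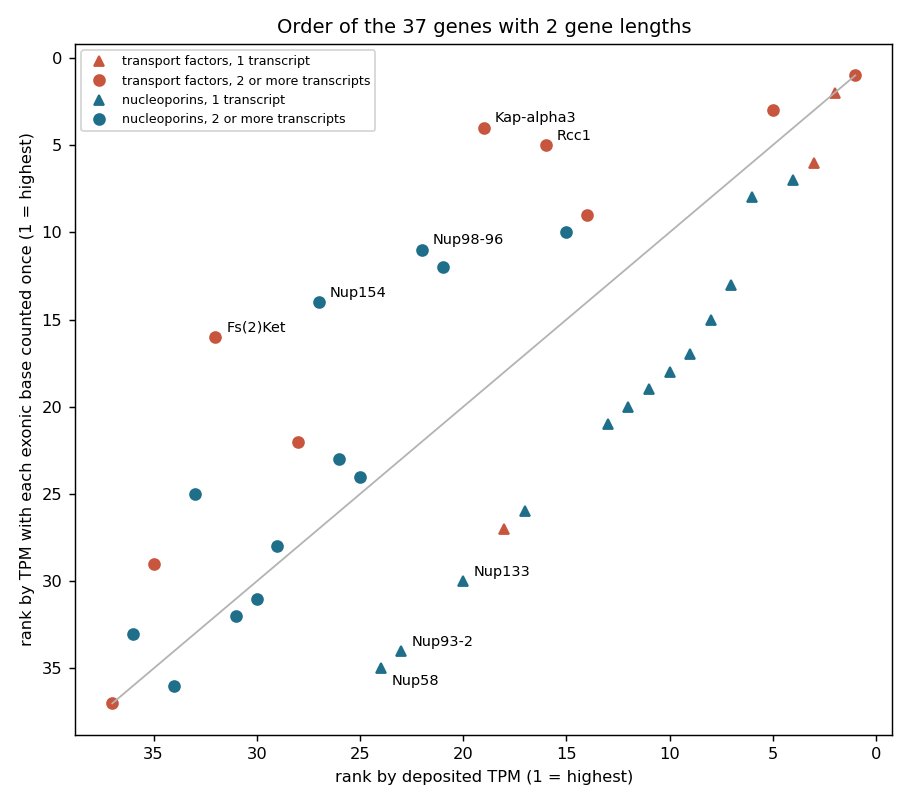
Rank of the 37 genes by deposited TPM (horizontal axis) and by TPM with each exonic base counted once (vertical axis), 1 being the highest, with the diagonal as a grey line. Triangles are genes with 1 annotated transcript and circles genes with 2 or more. Labels name the 8 genes that moved by 10 or more places, of which the circles lie above the diagonal and the triangles below it.

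On the deposited scale genes with several annotated transcripts tended to lie lower, with exceptions such as Ran, at rank 1 with 4 transcripts, and Karybeta3, at rank 5 with 2. More than 1 transcript was annotated for 21 of the 37 genes (56.8%), against 57.8% of counted genes with an annotated length. The deposited length was at least 2 times the exonic length for 10 genes (27.0%), against 29.8% of those genes, and at most 3.62 times, at Tnpo. Of the 17 genes below rank 20 by deposited TPM, 15 had several transcripts. The 21 genes with several transcripts had a median of 64.6 deposited TPM, against 147 for the 16 genes with 1 transcript. In exonic TPM these medians were 83.0 and 94.0. The rank correlation of level with transcript number across the 37 genes was -0.542 in deposited TPM and 0.0747 in exonic TPM, again as a description of genes from the same libraries. Neither length takes account of which transcripts the cells used.

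Neighbouring genes in the order were often not separable. Of the 36 neighbouring pairs by exonic TPM, 14 had ranges over the libraries that overlapped, as did 14 of the 36 by deposited TPM. On the exonic scale overlapping pairs included Cse1 with Rae1, emb with Nup358, Fs(2)Ket with Nup50, and sbr with Mtor. The run from Nup205 over Tnpo to Nup133 overlapped from each gene to the next. The high end of the order was clearer, with Ran, msk, Karybeta3, Kap-alpha3 and Rcc1 separated from each other and from Cse1.

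The replicates were compared gene by gene to see how far these levels hold. The absolute log2 ratio of CPM, replicate 1 over replicate 2, had a median of 0.03 over the 37 genes, and its largest value was 0.11, at Nup54. Over all 8846 counted genes the median was 0.05. These medians are not matched for depth, since the members had at least 788 counts and the minimum for a counted gene was 10. Among the members, 25 (67.6%) were higher in replicate 2, against 54.3% of counted genes. Each gene's 2 counts were then tested against the library totals with an exact binomial test, two-sided and Benjamini-Hochberg adjusted over the 8846 genes, which compares these libraries with counting noise and not conditions. Tnpo and msk were called, that is, 2 of 37, against 1.51% of the genes tested. Tnpo was higher in replicate 1, its 7046 counts in replicate 1 and 6235 in replicate 2 giving a log2 ratio of 0.10 (exact binomial test, adjusted p = 0.00639), in a direction called for 0.497% of genes. The msk gene was lower in replicate 1, its 23588 counts in replicate 1 and 23144 in replicate 2 giving a log2 ratio of -0.05 (exact binomial test, adjusted p = 0.0224), in a direction called for 1.02% of genes. The call at msk was lost when library sizes came from edgeR TMM (adjusted p = 0.0924), from DESeq2 size factors (0.156) or from totals without mitochondrial genes (0.200), in a range of 0.0191 to 0.200, whereas the adjusted p of Tnpo ran from 0.00190 to 0.00944 over the 5 alternatives. At an unadjusted p under 0.05 stood 6 members and 10.1% of the genes tested. None of these shares of the genes tested was matched for depth either, and at higher counts the test calls smaller differences. They therefore do not show whether the members differed more often than genes of like depth.

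**Figure D4:**
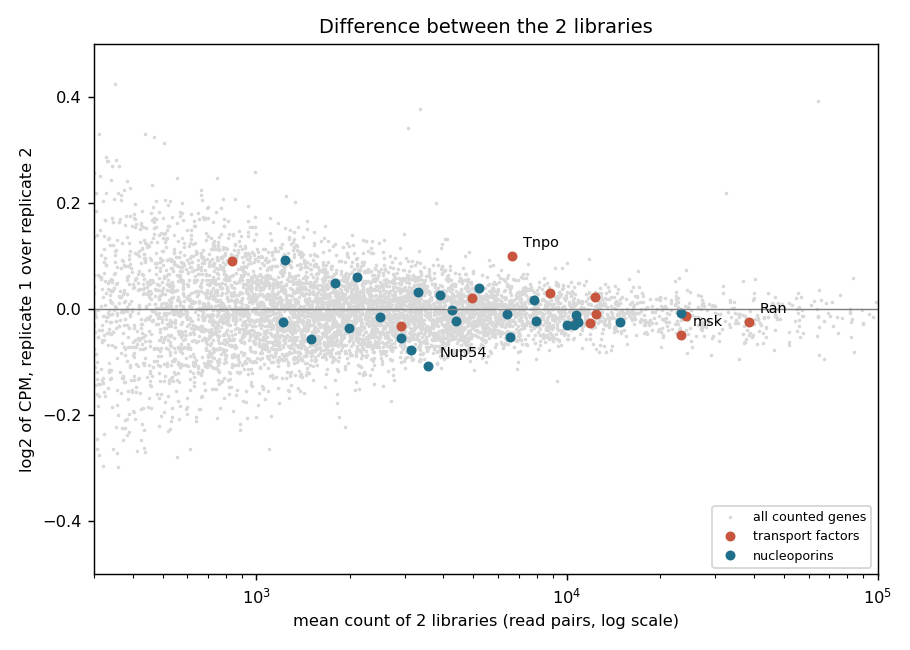
Log2 ratio of CPM, replicate 1 over replicate 2, against the mean count of the 2 libraries on a log scale, for counted genes (grey) and for the transport factors and nucleoporins (coloured). The axes leave out genes under 300 or over 100000 counts or beyond 0.5 on the log2 scale. The 37 genes lie within 0.11 of 0, with Nup54 farthest below and Tnpo farthest above.

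Reads on the strand opposite to a gene were few at most of these genes. Their share of the strand-resolved reads, over both libraries, had a median of 1.10% over the 37 genes, against 1.46% over counted protein-coding genes, and 27 genes were under 2%. Over 10% was found at 2 of the 37 genes, Tnpo-SR and Nup154, against 19.2% of all genes with at least 100 strand-resolved reads. This last background is not limited to protein-coding genes, as the members are. Tnpo-SR had 14.9% in replicate 1 and 15.3% in replicate 2, and Nup154 had 12.8% and 11.6%. Next came Nup160, with 9.52% in replicate 1 and 8.95% in replicate 2.

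These 3 genes overlap an annotated gene on the other strand. Tnpo-SR lies on chromosome 2L from 2759924 to 2763889 on the plus strand (BDGP6.54, the dm6 coordinates) and shares 474 exonic bases with Snx21. Nup154, on 2L from 11004820 to 11010921, also on the plus strand, shares 1077 with Art8, and Nup160, on 2L from 11123777 to 11129335 on the same strand, shares 404 with RfC38. Among the members, 13 share exonic bases with a gene on the opposite strand and none with a gene on the same strand. Opposite-strand reads made up a median of 2.96% at these 13 genes, with a range of 0.817% to 15.1%, and a median of 0.909% at the other 24, with a range of 0.416% to 4.64%. The 4.64% belonged to Nup37, which lies 247 bases upstream of Nup358 on the same strand and 143 bases from RpS27 on the other. Whether the reads at any of these genes came from the neighbours was not tested.

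**Figure D5:**
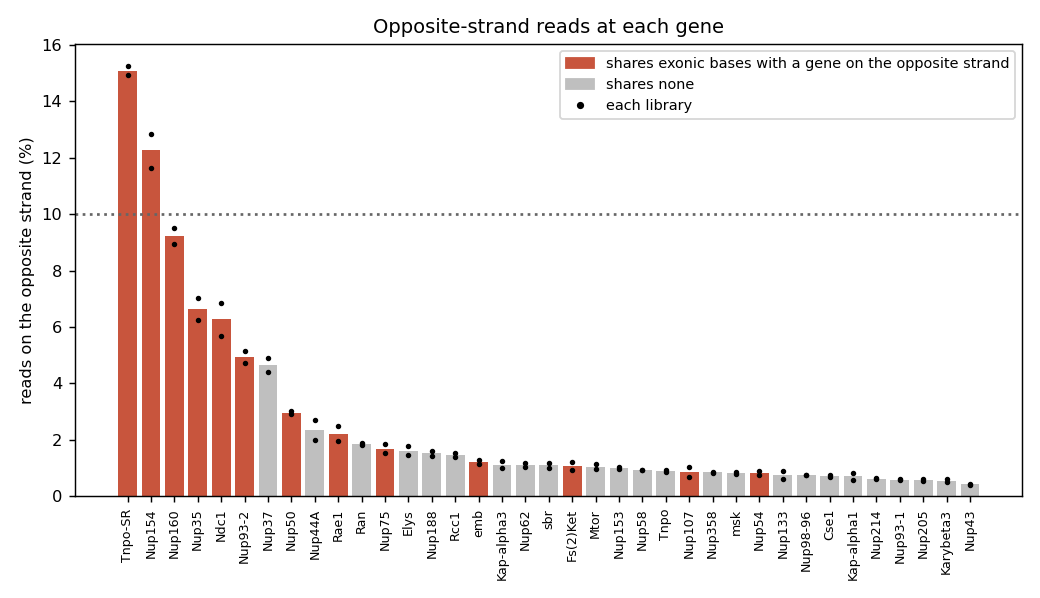
Share of strand-resolved reads that lay on the strand opposite to each of the 37 genes, in percent. Bars are both libraries together, points are each library, and the dotted line marks 10%. Genes that share exonic bases with a gene on the opposite strand are coloured, among them the 6 with the highest shares, from Tnpo-SR (15.1%) to Nup93-2.

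Strand also decided how many reads Nup93-2 received. Its unstranded count was 69.2% of its strand-matched count in replicate 1 and 69.6% in replicate 2, the lowest of the 37 genes, and it shares 688 exonic bases with CG14860 on the other strand. Unstranded counting leaves out read pairs that lie on the exons of 2 genes. Over the 24 genes that share no exonic bases with the other strand, the unstranded count was from 100.4% to 105% of the strand-matched count in replicate 1, while 8 of the 13 that do were under 99%. Deposited TPM was made from strand-matched counts, so the ratio of Nup93-1 to Nup93-2 given above does not carry this loss.

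The rest of the pathway was read from a list of 25 companion genes, of which 24 were found and 21 reached 10 counts in both libraries. These 21 had a median of 66.4 deposited TPM and 70.9 exonic TPM, and 0 of the 21 was called between the libraries by the exact binomial test. Among structural partners, the membrane nucleoporin Gp210 had 97.3 ± 0.266 exonic TPM, Aladin, which binds Ndc1, had 76.8 ± 1.36, and mbo, the Nup88 that pairs with Nup214, had 48.6 ± 2.06 (SD, n = 2). Sec13, which serves both the Y complex and vesicle coats of the endoplasmic reticulum, had 186 ± 2.43 exonic TPM (SD, n = 2), above all 9 Y complex genes of the rule. Nup214 was 2.42 times its partner mbo on both scales.

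Other companions act as receptors or in the last steps of export. The importins Ranbp9 (listed as Ipo9), cdm and Ranbp11 (listed as Impbeta11) had 108, 57.9 and 52.0 exonic TPM. The exportins Ranbp16, ebo and Ranbp21 stood at 48.6, 42.3 and 41.8. On both scales these 6 karyopherins lay below msk and Karybeta3 and above Tnpo-SR. Dbp80, the RNA helicase that releases mRNA at the pore, had 186 ± 2.11 and its cofactor Gle1 had 42.4 ± 0.667 exonic TPM (SD, n = 2). Opposite-strand reads made up 15.2% at Dbp80.

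Close relatives of the members known mainly from the germ line ran from 0 counts to levels within the range of the members. Ran-like had 11 counts in replicate 1 and 9 in replicate 2, alphaKap4 had 1 and 0, and nxf4 had 0 in both, where a count of 0 allows up to 0.0897 CPM in replicate 1 and 0.0946 CPM in replicate 2. Ntf-2r had 87 and 88 counts, against 7874 and 7358 for Ntf-2, the factor that returns Ran to the nucleus. Ntf-2r averaged 10.6 deposited TPM, beside 11.3 for Tnpo-SR, the lowest member. The gene nxf2, a relative of sbr that acts in transposon silencing in the ovary, had 2220 counts in replicate 1 and 2121 in replicate 2, at 44.0 and 44.6 exonic TPM, and sbr was 1.87 ± 0.0288 times as high (SD, n = 2). Another relative, nxf3 (listed as Nxf3), had 789 and 779 counts, at 6.08 and 6.36 exonic TPM.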

How the data were processed

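RNA-seq was analysed for 2 DMSO control libraries. Paired-end reads from stranded, poly(A)-selected libraries were aligned by the authors to dm6 with STAR 2.7.1a and counted per gene, and these counts were deposited for each library without normalization. The table made by the authors also gives TPM from these counts, a gene length and the mean TPM of the libraries. No column of values (0) lacked a sample or group. Rows that name no gene, 21.6% of read pairs in replicate 1 and 21.0% in replicate 2, were left out.

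Symbols were matched for 17709 of 17807 identifiers. Exons, coordinates and transcripts came from Ensembl release 115 (BDGP6.54), which held 17710 of these genes. The other 97 were left out of exonic TPM. A gene was counted with at least 10 strand-matched counts in each library, and opposite-strand shares were read at 100 or more reads. With 1 condition, no differential test was made. Library differences were tested across all counted genes by an exact binomial test, with edgeR 4.0.16 TMM and DESeq2 1.42.0 size factors (R 4.3.3) as alternatives. Other steps used scipy 1.17.1, matplotlib 3.10.9, pandas 2.3.3 and numpy 2.4.6 under Python 3.11.15, and the test and TPM steps were tested on simulated data. Every member was named, and companions came from a list. Members and lists were chosen with earlier results of these data known. The counts of genes by level, rank, overlap and transcript number were chosen after the values were seen.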

Additional observations from a re-analysis of the deposited data

How the results depend on the processing

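The 37 genes had the minimum count under every alternative tried (1 or 100 counts, unstranded counts, either library alone). With each exonic base counted once, the median level was 93.5 TPM over the 37 genes, 181 for transport factors and 88.2 for nucleoporins. With the longest transcript as length it was 89.7, 173 and 84.6 in the same order. With unstranded counts it was 120.0 over the 37 genes and 124 for transport factors, and moved by less than the spread between libraries for nucleoporins. With 1 library left out the medians ran from 115.4 to 118 over the 37 genes, 95.3 to 100.2 for nucleoporins and 120.7 to 121.9 for transport factors, which with 2 libraries is no check of stability, and the minimum count could not move them since every member reached it. Members that differed between the libraries numbered 1 with TMM, with DESeq2 size factors and without mitochondrial genes, in each case Tnpo, and 2 with unstranded counts or with every gene that had a count in either library. Members over the opposite-strand limit numbered 5 at a limit of 5% and 0 at 20%. For these changes of count at the library test the cause was not tested. The exonic length and unstranded counts for single genes were chosen after seeing the data. The first multiplied the 16 genes with 1 transcript by a common 0.638, so that a move of these genes is not an effect of their own length. The span of the Y complex was 2.75-fold with the exonic length, against 4.94-fold with the deposited length, and that of the inner ring 3.32-fold, against 5.03-fold. No paired analysis was possible because the samples form a single group. An SD here rests on 2 values, and reads placed at several sites are missing from every level.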
